A study of Mus musculus with 27 samples.

Results

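Dorsal skin of C3H mice that had received solvent (Vehicle, 9 libraries) was compared with untreated dorsal skin (Blank, 9 libraries), gene by gene, across all genes with enough reads. These 18 of the series' 27 libraries were chosen by their labels alone. The other 9 libraries came from skin given the thyroid hormone receptor agonist TDM10842, labelled TDM, and they enter only as a shared estimate of spread and as levels set beside the other groups. Vehicle skin was treated at 0 and 24 h with 60 µL of solvent each time, TDM skin got the drug on the same schedule, and Blank skin got nothing. All mice were of 1 strain, and the labels give neither the solvent's composition, the age or sex of the animals, nor the time of sampling. The comparison therefore asks what the solvent and its application changed in skin before any drug is considered. The labels number the libraries 1 to 9 in each group without saying that each came from a separate animal, so each p-value reflects only how far these libraries scatter, and that scatter may in part be technical.

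Mouse back skin is a thin layered epidermis over a collagen-rich dermis, with hair follicles, fat and a sheet of striated muscle beneath. Epidermal cells divide in the basal layer and move outward, switching from the keratins Krt5 and Krt14 to Krt1 and Krt10. In the outermost living layers they then make the cornified envelope, a protein shell cross-linked by transglutaminases from involucrin, loricrin and the small proline-rich and late cornified envelope proteins. Lipid enzymes fill the spaces between the dead cells, and kallikrein proteases, held back by inhibitors, cut the junctions between them so that they can be shed. Many of these genes lie together in 1 stretch of mouse chromosome 3, and their promoters are a textbook target of AP-1, the Fos and Jun family of transcription factors.

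The promoters of 4 cornified envelope genes are shown because the clearest difference between the groups lay in this gene family. Sprr4 and Rptn had the 2 lowest log2 fold changes in the family, and Ivl and Lor encode its main structural proteins, involucrin and loricrin. Each line gives the 250 bases before the RefSeq start of the gene on GRCm38.p6, 5′ to 3′ on the strand of the gene. Capitals mark the AP-1 motif TGANTCA, the TATA box TATAAA and the Grainyhead-like motif AACNNGTT.
Ivl, chr3:92573736-92573985, minus strand: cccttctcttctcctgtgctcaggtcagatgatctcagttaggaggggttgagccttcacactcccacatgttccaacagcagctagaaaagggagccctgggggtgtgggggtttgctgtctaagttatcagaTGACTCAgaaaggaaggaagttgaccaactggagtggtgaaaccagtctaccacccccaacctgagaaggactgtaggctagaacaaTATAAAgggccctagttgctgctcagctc
Sprr4, chr3:92500494-92500743, minus strand: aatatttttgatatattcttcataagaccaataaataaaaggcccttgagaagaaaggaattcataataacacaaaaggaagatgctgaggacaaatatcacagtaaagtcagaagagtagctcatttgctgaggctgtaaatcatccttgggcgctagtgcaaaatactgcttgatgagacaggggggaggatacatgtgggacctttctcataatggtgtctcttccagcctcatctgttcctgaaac
Rptn, chr3:93393449-93393698, plus strand: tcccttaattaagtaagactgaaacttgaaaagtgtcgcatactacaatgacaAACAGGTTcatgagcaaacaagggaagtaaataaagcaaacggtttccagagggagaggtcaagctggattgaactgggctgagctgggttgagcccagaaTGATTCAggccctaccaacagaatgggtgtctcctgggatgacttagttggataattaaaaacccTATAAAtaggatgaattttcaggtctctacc
Lor, chr3:92083143-92083392, minus strand: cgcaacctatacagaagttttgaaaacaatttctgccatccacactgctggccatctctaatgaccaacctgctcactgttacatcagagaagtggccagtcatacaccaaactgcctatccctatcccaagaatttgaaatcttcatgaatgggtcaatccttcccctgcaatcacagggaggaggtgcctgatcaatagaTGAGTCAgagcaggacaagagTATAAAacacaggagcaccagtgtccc
The AP-1 motif begins 116 bases before the start of Ivl, 96 before that of Rptn and 48 before that of Lor, and the Sprr4 window holds none of the 3 motifs. Windows of 250 bases before to 50 after the start were listed for 30 of the 35 cornified envelope genes tested, 33 windows in all. TGANTCA occurred on either strand in 36.4% of these, against 7.81% of all 32851 promoter windows. TATAAA occurred in 33.3% against 13.6%, and AACNNGTT in 6.06% against 4.2%. In 17 windows of the epidermal protease and inhibitor genes described below, TGANTCA occurred in 17.6%, TATAAA in 11.8% and AACNNGTT in 0%. In 25 windows of the barrier lipid genes the shares were 12.0%, 4.0% and 0%. No 2 of these motifs overlap in the printed windows. A match describes the letters in the window and does not show that a factor is bound.

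Total counts ran from 15412332 to 17599066 reads over the 18 libraries, and the tissue markers matched skin. Summed over 5 retina markers, a tissue that the extraction text names, the level was at most 4.04 CPM (read counts scaled to the library's size) in any of the 18 libraries, whereas the basal keratins Krt5 and Krt14 summed to 2467 CPM or more. Several libraries stood apart from their group. Vehicle replicates 7 and 8 carried growing-follicle and cycling-cell transcripts, described with the hair follicle below. Vehicle replicates 3 and 8 lay at 61.0 and 49.8 on the first principal component, which held 37.8% of the variance among the 18 libraries, whereas the highest Blank library lay at 2.52. Skeletal muscle genes were abundant throughout: 5 muscle markers summed to between 16997 and 39937 CPM in Blank and between 15763 and 52704 CPM in Vehicle. Muscle content varied widely within both groups, from the lowest levels in Vehicle replicate 7 and Blank replicate 9 to the highest in Vehicle replicate 3 and Blank replicate 3.

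Of 17232 genes tested, 475 passed an adjusted p of 0.05 (2.76%), of which 321 were lower in Vehicle skin (1.86%) and 154 higher (0.894%). The lower genes moved further: 153 of them fell by a log2 change of 1 or more, whereas 14 genes rose that far. The median log2 fold change over all genes tested was 0.02, with quartiles at -0.16 and 0.19, and 46.5% of genes lay below 0. Counts of signs in the lists below are to be read against that share. Lists with 1 call are to be read against the 1.86% of genes lower and 0.894% higher. At an unadjusted p under 0.05 there were 4468 genes (25.9%), and DESeq2 called 1437 at an adjusted p under 0.05. In edgeR the smallest adjusted p of any gene was 0.0322. Called genes therefore sat close to the threshold together, and their number depended on single libraries. Leaving out Blank replicate 4, 6 or 9, or Vehicle replicate 1, 3, 6 or 8, left 0 genes called in edgeR, although 3430 to 4327 genes kept an unadjusted p under 0.05. Without Blank replicate 7, 1 gene was called. Leaving out Blank replicate 3 gave 867 calls, TDM replicate 7 gave 841, Vehicle replicates 4, 5 and 7 gave 823, 860 and 1289, Blank replicate 1 gave 256 and Vehicle replicate 9 gave 250. The sign of the difference was steadier than its call: each of the 475 genes kept its sign in all 27 of these fits. Every edgeR call given in the following paragraphs is lost without any 1 of those 7 libraries. For many lists, the range of medians without single libraries is given beside the calls.

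**Figure D1:**
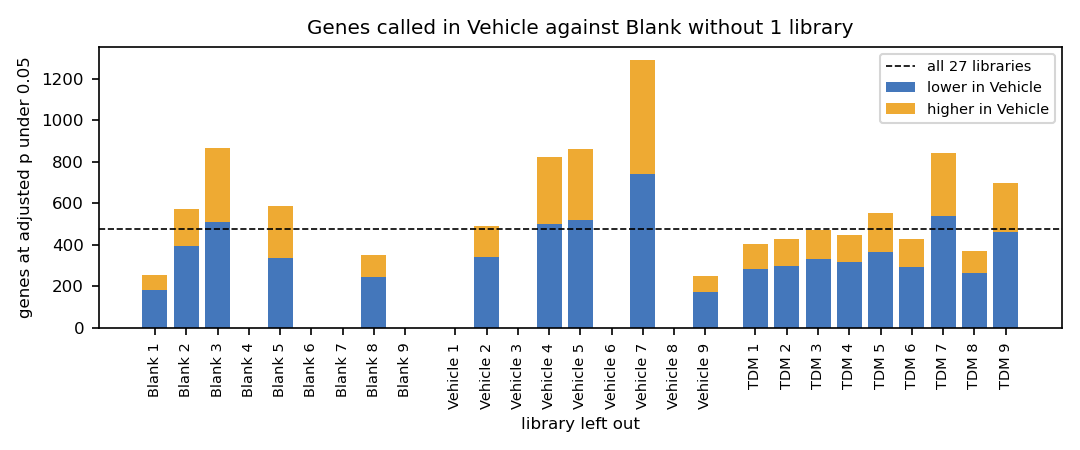
Number of genes at an adjusted p under 0.05 in Vehicle against Blank (vertical axis) when the library on the horizontal axis is left out, with genes lower in Vehicle in blue and genes higher in orange. The dashed line marks the 475 genes called with all 27 libraries, and the bars run from 0 to 1289.

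Genes of the cornified envelope were lower in Vehicle skin. Of 54 genes in the list, 35 had enough reads to be tested, and the other 19 had between 0 and 302 reads over the 18 libraries together. Of these, 17 fell, none rose, and 34 had a log2 fold change below 0, with a list median of -1.88 against 0.02 over all genes tested. The list mean, in log2 CPM, ran from 3.68 to 6.50 in Blank libraries with a median of 5.18, and from 2.15 to 4.49 in Vehicle libraries with a median of 3.35. All 9 Vehicle libraries lay below the Blank median, and the groups overlapped only because Blank replicate 3 lay at 3.68. Leaving out single libraries moved the list median between -2.07 and -1.63, the latter without Blank replicate 9. In bulk tissue, fewer outer epidermal cells and less RNA per cell cannot be told apart.

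Ivl encodes involucrin, an early scaffold of the envelope. Its lowest, median and highest levels were 11.7, 34.7 and 91.2 CPM in Blank and 4.08, 11.4 and 20.7 CPM in Vehicle. Blank replicate 3 was the only Blank library inside the Vehicle range, and Ivl fell by 1.83 on the log2 scale (standard error 0.37, adjusted p = 0.0323). Sprr4, a small proline-rich envelope precursor, ran from 0.610 through 10.1 to 56.2 CPM in Blank and from 0.0601 through 0.323 to 1.76 CPM in Vehicle. Vehicle skin thus held almost no Sprr4 transcript, and the log2 fold change of -4.54 (standard error 0.99, adjusted p = 0.0323) was the lowest of any called gene averaging 1 CPM or more. Its relative Sprr1a ran from 10.7 through 47.2 to 182 CPM in Blank and from 4.55 through 12.6 to 20.1 CPM in Vehicle, with a log2 fold change of -2.48 (standard error 0.58, adjusted p = 0.0323). For all 3 genes the lowest Blank library was replicate 3 and the highest was replicate 9.

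Tgm1 encodes the transglutaminase that cross-links envelope proteins. Its levels were 5.30, 16.3 and 37.8 CPM at the lowest, median and highest in Blank and 1.93, 4.75 and 8.78 CPM in Vehicle, with a log2 fold change of -1.94 (standard error 0.45, adjusted p = 0.0323). Rptn, the gene of the filament-binding protein repetin, ran from 1.28 through 6.69 to 23.6 CPM in Blank and from 0.0669 through 0.721 to 1.95 CPM in Vehicle. It fell by 3.32 on the log2 scale (standard error 0.84, adjusted p = 0.0366), and 7 of 9 Vehicle libraries lay below every Blank library. Flg and Flg2, filaggrin genes whose products bundle keratin and feed the water-holding pool of the outer layer, were named after their values were seen. Flg fell from a median of 23.3 to 4.71 CPM (log2 fold change -2.23, standard error 0.58, adjusted p = 0.0377) and Flg2 from 255 to 37.4 CPM (-2.40, standard error 0.63, adjusted p = 0.0390). Lor, whose product loricrin is the most abundant envelope protein, had a similar difference but missed the threshold in the main fit. In edgeR with the 18 libraries alone it passed (adjusted p = 0.0257), as in DESeq2 (0.00904). With skeletal muscle level or 3 surrogate variables as covariates in edgeR it did not (0.0853 and 0.123). Its levels were 319, 1257 and 1890 CPM in Blank and 25, 139 and 533 CPM in Vehicle at the lowest, median and highest, with a log2 fold change of -2.39 (standard error 0.68, adjusted p = 0.0505).

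**Figure D2:**
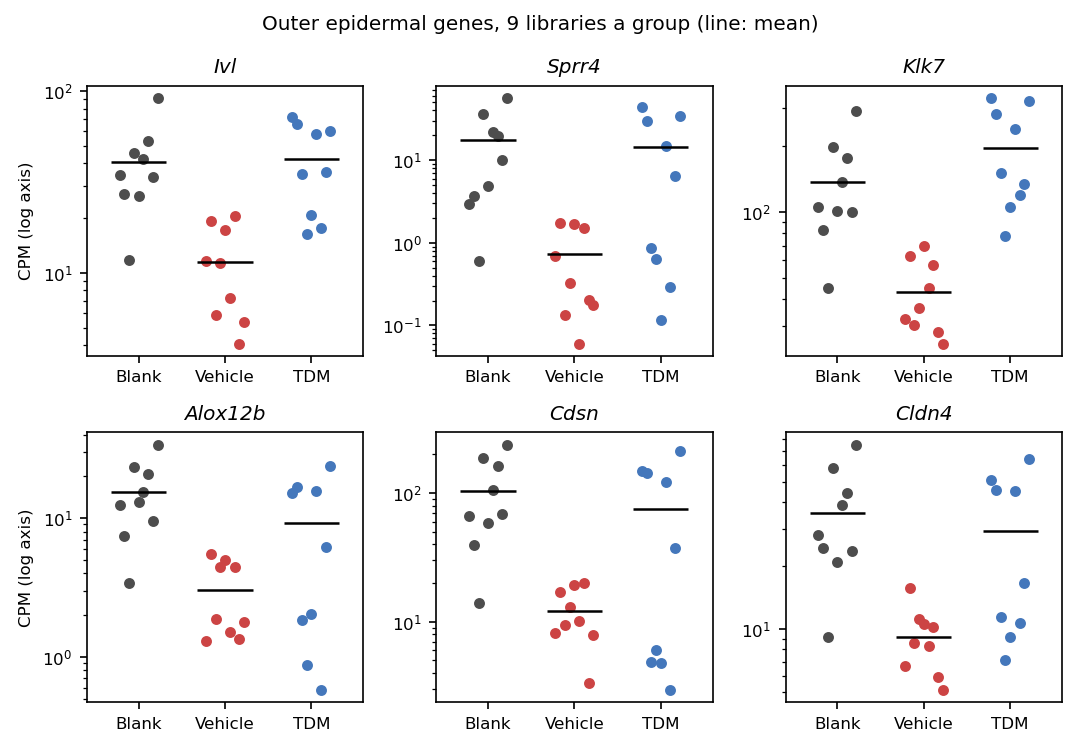
CPM on a log axis in each of the 9 Blank, 9 Vehicle and 9 TDM libraries for Ivl, Sprr4, Klk7, Alox12b, Cdsn and Cldn4, with 1 point per library and a line at the group mean. Vehicle means were lower than Blank means in all 6 genes (for Ivl 11.4 against 40.6 CPM), and TDM libraries spread over both ranges for Cdsn, Sprr4 and Alox12b.

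Along chromosome 3, a stretch from Sprr1a to Rptn was chosen, and its flank was read as a set on the Rptn side only. Between Sprr1a and Rptn (GRCm38 chr3:92483952-93399442), 28 genes were tested, all 28 had a log2 fold change below 0, and 16 fell. The median over these 28 genes was -1.91 and the range -4.54 to -0.42. The stretch holds the small proline-rich, late cornified envelope and filaggrin-type genes. The next 3 tested genes on the Rptn side (chr3:93442330-93564643), Tchh and a pair of S100 genes, had a median of -0.04, and none was called. On the other side, Lor lies outside the stretch (promoter from chr3:92083143) and had -2.39, so the stretch is not a measured boundary. Tchh encodes trichohyalin, a protein of the inner root sheath of the hair follicle rather than of the outer epidermis, and its log2 fold change was -0.25 (standard error 0.22, adjusted p = 0.479). Members of the late cornified envelope family are close copies of one another, so their separate counts are less certain than the family's direction. Not every envelope gene took part to the same degree. The plakin genes Ppl and Evpl, which tie the envelope to desmosomes, had log2 fold changes of -0.26 and -0.23, and Tgm5 and Tgm3 had -0.15 and 0.29, none of them called.

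**Figure D3:**
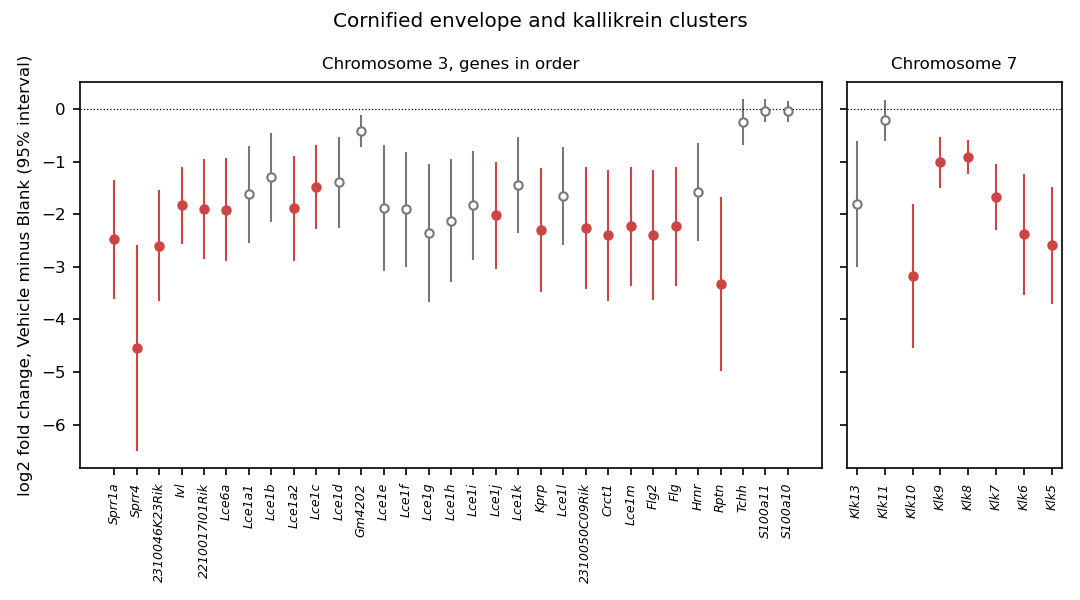
Log2 fold change of Vehicle minus Blank with its 95% interval for tested genes in their order along the chromosome 3 cluster (left) and the kallikrein cluster on chromosome 7 (right). Filled points passed an adjusted p of 0.05, and Tchh (-0.25), the next 2 genes beside it and Klk11 (-0.22) lie closest to the 0 line.

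Proteases and protease inhibitors of the outer epidermis were lower as well. Of 23 genes in that list, 19 were tested, 12 fell and none rose, with a median log2 fold change of -1.75 that moved between -1.87 and -1.46 as single libraries were left out. In the kallikrein cluster (chr7:43712567-43851181), 8 genes were tested and 6 fell: Klk5, Klk6, Klk7, Klk8, Klk9 and Klk10. Klk5 and Klk7 are the main proteases of shedding, and they cut corneodesmosin and desmogleins. Klk7 ran from 44.7 through 106 to 290 CPM in Blank and from 24.9 through 36.3 to 69.7 CPM in Vehicle, with a log2 fold change of -1.68 (standard error 0.32, adjusted p = 0.0322). Klk5 ran from 3.96 through 15.5 to 49.2 CPM in Blank and from 0.894 through 2.46 to 8.96 CPM in Vehicle, with a log2 fold change of -2.59 (standard error 0.57, adjusted p = 0.0323). Blank replicate 3 was the lowest Blank library for both.

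Klk10 had the largest fall of the cluster, from 5.61, 40.3 and 176 CPM at the lowest, median and highest in Blank to 4.98, 6.37 and 13.3 CPM in Vehicle (log2 fold change -3.17, standard error 0.70, adjusted p = 0.0323). Klk8, a protease of keratinocyte differentiation, differed less but more evenly, with 14.8, 26.2 and 40.5 CPM in Blank against 9.19, 12.9 and 18.9 CPM in Vehicle (-0.91, standard error 0.16, adjusted p = 0.0322). Klk9 lay below the lowest Blank library in 8 of 9 Vehicle libraries. Klk11, inside the same cluster, had -0.22 and was not called (adjusted p = 0.485). Spink5 encodes the inhibitor LEKTI that restrains these kallikreins. It fell together with its targets, from 27, 88.3 and 238 CPM in Blank to 15.3, 27.3 and 40.0 CPM in Vehicle (-2.05, standard error 0.51, adjusted p = 0.0344). The membrane serine protease gene St14 and its inhibitor gene Spint1 lay at -0.02 and 0.03, with no call.

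Enzymes that make the lipid barrier between cornified cells were lower in part. All 28 genes of the list were tested, 8 fell and none rose, with a median of -0.53 that lay between -0.64 and -0.46 without single libraries. The genes that fell furthest act late, in lipid breakdown and in binding ceramides to the envelope. Lipn and Lipk, acid lipases of the outer living layers, had medians of 2.43 and 3.94 CPM in Blank against 0.138 and 0.776 CPM in Vehicle. Lipn fell by 3.53 (standard error 0.81, adjusted p = 0.0323) and Lipk by 2.70 on the log2 scale (standard error 0.61, adjusted p = 0.0323). Vehicle replicate 6 gave no Lipn read. Sdr9c7, a dehydrogenase that acts on the linoleate chain of ceramides, ran from 1.95 through 12.8 to 43.5 CPM in Blank and from 0.413 through 1.08 to 4.45 CPM in Vehicle (log2 fold change -3.19, standard error 0.73, adjusted p = 0.0323). Alox12b, the lipoxygenase that opens the same pathway, had 3.41, 13.1 and 33.8 CPM in Blank against 1.31, 1.89 and 5.55 CPM in Vehicle (-2.35, standard error 0.57, adjusted p = 0.0343). Its partner Aloxe3 had -0.54 with an adjusted p of 0.156, and Elovl4 and Fa2h, which lengthen and hydroxylate the fatty acids, had -0.09 and 0.18, also without a call.

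Within the keratins and desmosomes of the suprabasal layers, 16 of 16 genes were tested, 4 fell and none rose, with a median of -0.78 (between -0.92 and -0.69 without single libraries). The 4 were Cdsn, Dsc1, Krt23 and Krt77. Cdsn encodes corneodesmosin, the adhesive of the cornified junction. Its levels were 14, 68.6 and 237 CPM in Blank against 3.35, 10.1 and 19.9 CPM in Vehicle at the lowest, median and highest, and 6 of 9 Vehicle libraries lay below every Blank library (log2 fold change -3.11, standard error 0.71, adjusted p = 0.0323). Dsc1, the desmocollin of the upper layers, had 4.08, 29.8 and 132 CPM in Blank against 2, 4.52 and 11.1 CPM in Vehicle (-3.07, standard error 0.70, adjusted p = 0.0323). Krt77, a suprabasal keratin abundant in mouse skin, went from a median of 1041 CPM to 307 CPM (-1.96, standard error 0.47, adjusted p = 0.0331).

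Keratins that mark the first suprabasal step differed less. Krt10 had 502, 1287 and 2292 CPM in Blank against 300, 459 and 958 CPM in Vehicle and just missed the threshold in the main fit (log2 fold change -1.40, standard error 0.40, adjusted p = 0.0504). In edgeR with the 18 libraries alone Krt10 passed (0.0104), as in DESeq2 (0.0095). With skeletal muscle level or 3 surrogate variables as covariates in edgeR Krt10 did not (0.140 and 0.183). Krt1, the partner of Krt10, had 314, 526 and 903 CPM in Blank against 234, 366 and 611 CPM in Vehicle (-0.54, standard error 0.24, adjusted p = 0.157). Blank replicate 3 was the lowest Blank library for both, and the Krt1 ranges overlapped between 314 and 611 CPM.

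In the junction list, 2 of 20 genes fell, both claudins, and none rose (median -0.23, between -0.28 and -0.19 without single libraries). Cldn23 ran from 0.853 through 6.92 to 18.1 CPM in Blank and from 0.118 through 0.669 to 1.75 CPM in Vehicle, with a log2 fold change of -3.35 (standard error 0.71, adjusted p = 0.0323). Cldn4, a sealing claudin of the granular layer, ran from 9.14 through 28 to 75 CPM in Blank and from 5.13 through 8.55 to 15.6 CPM in Vehicle (-1.97, standard error 0.42, adjusted p = 0.0323). Cldn1, the claudin of all living layers, and Ocln, the gene of occludin, had -0.27 and -0.43 with adjusted p of 0.186 and 0.159.

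In edgeR, 1 transcription factor gene of epidermal differentiation passed the test, and no basal keratinocyte gene did. Of 25 transcription factor genes, 1 fell, against 1.86% of all genes tested. It was Hopx, a homeodomain-only cofactor, from a median of 34.1 to 24.6 CPM (log2 fold change -0.50, standard error 0.14, adjusted p = 0.0471). The list median was -0.21, between -0.28 and -0.18 without single libraries. At an unadjusted p under 0.05 the list held 10 genes, and DESeq2 called 5. Klf4 and Grhl3, which drive barrier formation in mouse embryos, had -0.44 and -1.04 with adjusted p of 0.139 and 0.0634. Grhl3 passed in DESeq2 (adjusted p = 0.0227) and in edgeR with the 18 libraries alone (0.0396), but not in edgeR with 3 surrogate variables (0.274). Of 15 basal genes, 0 were called in edgeR (4 at an unadjusted p under 0.05, and 1 called by DESeq2) and 14 had a log2 fold change above 0, with a median of 0.24 (between 0.17 and 0.30 without single libraries). Krt5 had 1228, 2032 and 2735 CPM in Blank against 1642, 2408 and 4678 CPM in Vehicle (0.54, standard error 0.18, adjusted p = 0.0775). Krt14 had 0.40 (standard error 0.18, adjusted p = 0.159). The ranges of both keratins overlapped widely, and 4 Vehicle libraries exceeded every Blank library for Krt5.

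**Figure D4:**
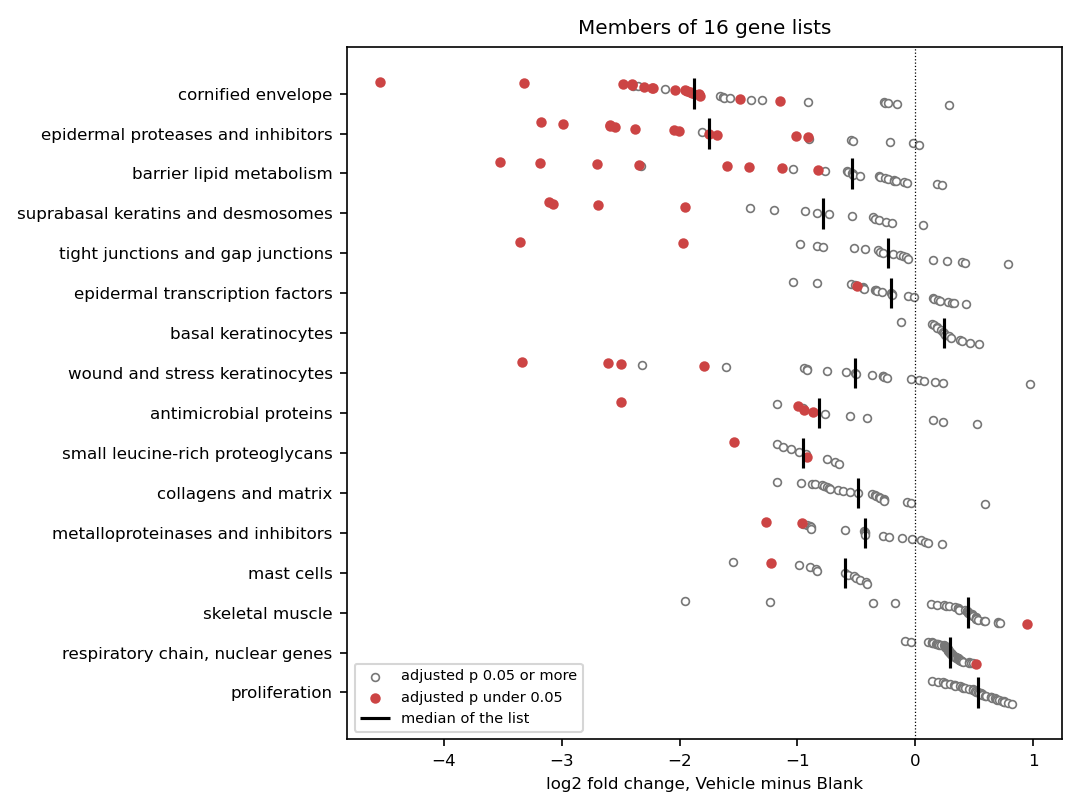
Log2 fold change of Vehicle minus Blank (horizontal axis) for each tested member of 16 gene lists, with filled points for an adjusted p under 0.05 and a bar at the list median. Cornified envelope and protease lists lie to the left at medians of -1.88 and -1.75, and basal keratinocytes at 0.24.

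Stress and defence genes of keratinocytes were lower in Vehicle skin where they were called in edgeR. In the wound and stress list, 4 of 24 tested genes fell (S100a9, Il1f9, Ereg and the low-level Il1f6) and none rose (list of 27, median -0.51, between -0.56 and -0.36 without single libraries). Il1f9, an epidermal cytokine of the interleukin-1 family, had 1.22, 7.29 and 35.4 CPM in Blank against 0.468, 1.80 and 3.13 CPM in Vehicle (log2 fold change -2.49, standard error 0.61, adjusted p = 0.0344). Ereg, which encodes the epidermal growth factor receptor ligand epiregulin, had 2.38, 8.46 and 25.9 CPM against 0.201, 1.38 and 4.70 CPM (-2.61, standard error 0.66, adjusted p = 0.0366). S100a9, a calprotectin subunit of neutrophils and stressed keratinocytes, had medians of 2.52 and 0.548 CPM (-1.79, standard error 0.44, adjusted p = 0.0341). Krt16, the classical keratin of irritated epidermis, was not called. Its Blank median was 10.6 CPM and its Vehicle median 9.27 CPM, and Blank replicate 9 alone reached 72.3 CPM (-0.95, adjusted p = 0.130, and -0.25 without that library). Krt6a, another stress keratin, was not called either. It ran from 21.4 to 67.2 CPM in Blank and from 18.5 to 92.7 CPM in Vehicle, highest in Vehicle replicate 3. Of the 24 tested genes of this list, 5 had a log2 fold change above 0.

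Among antimicrobial protein genes, 4 of 12 tested fell and none rose (list of 16, median -0.82, between -0.94 and -0.67 without single libraries). Defb6 and Defb1 encode beta-defensins. Defb6 had 58.5, 85.0 and 131 CPM in Blank against 34.3, 48.8 and 78.8 CPM in Vehicle (log2 fold change -0.94, standard error 0.19, adjusted p = 0.0322). Defb1 had 7.41, 13.8 and 20.04 CPM in Blank against 4.81, 8.19 and 9.29 CPM in Vehicle (-0.87, standard error 0.20, adjusted p = 0.0323). For Defb6, 7 of 9 Vehicle libraries lay below the lowest Blank library, and for Defb1 4 of 9. Wfdc5, a protease inhibitor with a whey acidic protein domain, fell by 2.49 (standard error 0.51, adjusted p = 0.0323), and the ribonuclease gene Rnase4 fell by 1.00 on the log2 scale (standard error 0.23, adjusted p = 0.0323).

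The dermis differed in a smaller and more scattered way. All 10 small leucine-rich proteoglycan genes, whose products space collagen fibrils, had a log2 fold change below 0, and 2 fell (median -0.96, between -1.06 and -0.84 without single libraries). Fmod, fibromodulin, had 11.8, 27 and 37.5 CPM in Blank against 1.87, 9.55 and 15 CPM in Vehicle (-1.53, standard error 0.40, adjusted p = 0.0377). Bgn, biglycan, had 314, 498 and 567 CPM against 80.7, 250 and 422 CPM (-0.92, standard error 0.25, adjusted p = 0.0452). Dcn, decorin, and Lum, lumican, had -1.12 and -0.99 with adjusted p of 0.0564 and 0.0874. Of 20 metalloproteinase and inhibitor genes, 2 fell, the gelatinase gene Mmp2 (-1.27, standard error 0.33, adjusted p = 0.0379) and its membrane activator Mmp14 (-0.96, standard error 0.26, adjusted p = 0.0407). Vehicle replicates 3 and 7 marked the lowest and the highest Vehicle level of Bgn, Dcn, Lum, Mmp2 and Mmp14.

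No collagen or matrix gene was called in edgeR: 0 of 25 passed, against 13 at an unadjusted p under 0.05, 4 called by DESeq2 and 1 by limma voom, and 24 had a log2 fold change below 0 (median -0.49, between -0.71 and -0.39 without single libraries). Col1a1 spanned 5796 to 12751 CPM in Blank and 920 to 11605 CPM in Vehicle (-0.88, standard error 0.41, adjusted p = 0.172). Col3a1 had -0.75 (adjusted p = 0.173). The Vehicle range of both collagens covered most of the Blank range. Fibroblast markers summed to between 11556 and 26411 CPM in Blank and between 2354 and 21606 CPM in Vehicle. Col1a1 and Col3a1 make up most of that sum, with Blank means of 9904 and 7032 CPM against 1660 CPM for Dcn, 401 CPM for Lum and 151 CPM for Pdgfra. The sum is therefore no separate measure of fibroblast content. Pdgfra ran from 93.0 through 145 to 226 CPM in Blank and from 41.2 through 86.1 to 227 CPM in Vehicle. Col1a1, Col3a1, Dcn and Lum are themselves among those 5 markers, and the part of fibroblast content in the differences was not tested. Of 16 fibroblast identity genes, 0 were called in edgeR (median -0.52, with 9 at an unadjusted p under 0.05 and 2 called by DESeq2).

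Vessel and mast cell genes gave 1 call each in lists that lay mostly below 0. Vegfc, a growth factor of lymphatic vessels, had 7.71, 10.4 and 12.7 CPM in Blank against 1.62, 6.03 and 7.14 CPM in Vehicle, and the groups did not overlap (log2 fold change -1.01, standard error 0.23, adjusted p = 0.0323). It was the 1 gene of 8 in the lymphatic list to fall (median -0.78), and 0 of 14 blood vessel genes were called in edgeR (median -0.44, with 5 at an unadjusted p under 0.05 and 2 called by DESeq2). Hdc, the histamine-forming enzyme of mast cells, had 7.61, 9.29 and 19.7 CPM in Blank against 1.01, 5.67 and 7.19 CPM in Vehicle, again without overlap (-1.22, standard error 0.29, adjusted p = 0.0331). All 13 tested mast cell genes had a log2 fold change below 0 (median -0.59), but the mast cell proteases Mcpt4 and Cpa3, at -0.84 and -0.89, were not called (adjusted p = 0.108 and 0.170). The 3 mast cell markers summed to between 234 and 548 CPM in Blank and between 26.9 and 346 CPM in Vehicle, with Vehicle replicate 3 the lowest for Mcpt4 and Cpa3.

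Immune cell, adipocyte and sebaceous lists gave 0 calls in edgeR. Median log2 fold changes were -0.63 over 12 macrophage genes, -0.21 over 12 Langerhans and antigen-presenting cell genes, -0.09 over 17 T cell genes, -0.27 over 15 dermal adipocyte genes and -0.11 over 20 sebaceous genes. At an unadjusted p under 0.05 these lists held 6, 0, 2, 1 and 2 genes, and DESeq2 called 3, 0, 0, 0 and 1. Over all genes tested 25.9% had such a p, so the macrophage list lay above that share and the others below it. All 12 macrophage genes had a log2 fold change below 0. Of 24 tested chemokine genes, 1 fell: Ccl24, an eosinophil attractant made by macrophages, from a median of 13.3 to 5.77 CPM (-1.11, standard error 0.30, adjusted p = 0.0447). Of 27 tested genes of xenobiotic and oxidant responses, 1 fell, the glutathione transferase gene Gsta2, from a median of 3.41 to 1.48 CPM (-1.06, standard error 0.23, adjusted p = 0.0323). Over all genes tested 1.86% fell, so 1 call in lists of 24 and 27 genes says little about either list. At an unadjusted p under 0.05 the chemokine and xenobiotic lists held 4 and 6 genes, and DESeq2 called 1 and 2. General stress lists held 0 calls in edgeR among 17 heat shock and unfolded protein genes (median -0.04), 15 immediate early genes (0.00) and 17 interferon-stimulated genes (-0.31), with 8, 0 and 2 at an unadjusted p under 0.05 and 1, 0 and 0 called by DESeq2. Also without an edgeR call were 25 cholesterol and fatty acid synthesis genes (0.17), 9 pericyte and smooth muscle genes (0.06), 3 neutrophil genes (-0.71), 6 B and plasma cell genes (-0.34), 5 erythrocyte genes (0.41) and 4 retina genes (0.22), with 3, 2, 2, 1, 0 and 1 at an unadjusted p under 0.05 and 1, 0, 1, 0, 0 and 0 called by DESeq2. Of 13 nerve and Schwann cell genes (median 0.10), 1 rose, the noradrenaline-forming enzyme gene Dbh, which averaged under 1 CPM.

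Muscle and respiratory genes lay the other way. Of 37 tested skeletal muscle genes, 33 had a log2 fold change above 0 and 1 rose, with a median of 0.45 (between 0.33 and 0.57 without single libraries). Over all genes tested 46.5% lay below 0 and 0.894% rose. At an unadjusted p under 0.05 the muscle list held 13 genes, and DESeq2 called 2. Trim72, a membrane-repair protein of striated muscle, had 41.2, 73.8 and 132 CPM in Blank against 74.8, 124 and 283 CPM in Vehicle (0.95, standard error 0.24, adjusted p = 0.0357). In all, 4 of 9 Vehicle libraries exceeded every Blank library. Ckm, muscle creatine kinase, had 0.44 and was not called (adjusted p = 0.201). Of 61 nuclear genes of the respiratory chain, 59 lay above 0 and 1 rose in edgeR (median 0.29, between 0.23 and 0.36). That gene was Cycs, cytochrome c, with 80.7, 92.3 and 123 CPM in Blank against 105, 131 and 192 CPM in Vehicle (0.51, standard error 0.13, adjusted p = 0.0377). At an unadjusted p under 0.05 the respiratory list held 52 of its 61 genes, against 25.9% of all genes tested, and DESeq2 called 14. With the mean of the muscle list as a covariate in edgeR, the respiratory median was 0.14 with 0 calls. The 13 genes of the mitochondrial genome had a median of 0.26 with 0 calls in edgeR and DESeq2 and 4 at an unadjusted p under 0.05.

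Muscle content and the cornified envelope list ran in opposite directions in several libraries, but not in all. Blank replicate 3 had the highest mean of the muscle list among Blank libraries (9.92 log2 CPM) and was the lowest Blank library for 30 of the 35 tested cornified envelope genes. Blank replicate 9 had the lowest muscle mean (8.33 log2 CPM) and was the highest Blank library for 31 of the 35. Vehicle replicates 1, 3 and 8 had the highest Vehicle muscle means, at 9.76 log2 CPM or more. Their cornified envelope means were the lowest in Vehicle, at 2.76 log2 CPM or less. At the low-muscle end the order did not hold. Blank replicate 2 had the next-lowest Blank muscle mean (8.43) and also the next-lowest Blank cornified envelope mean (4.84). Vehicle replicate 7, lowest in muscle, had a cornified envelope mean of 4.01, below Vehicle replicates 2 and 5 (4.49 and 4.37). Vehicle replicate 6, next-lowest in muscle (8.75), lay at the Vehicle median of 3.35. The muscle mean ran from 8.33 to 9.92 with a median of 9.02 in Blank and from 8.32 to 10.01 with a median of 9.27 in Vehicle. With that mean as a covariate in edgeR, no gene was called (smallest adjusted p 0.0515, with 3152 genes at an unadjusted p under 0.05). The cornified envelope median was then -1.28, the protease median -1.22 and the barrier lipid median -0.39. The muscle median was 0.04, which was bound to lie near 0 because the covariate was the mean of that list. Ivl had -1.42 (adjusted p = 0.0705) and Klk7 -1.29 (adjusted p = 0.0647) in that fit.

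**Figure D5:**
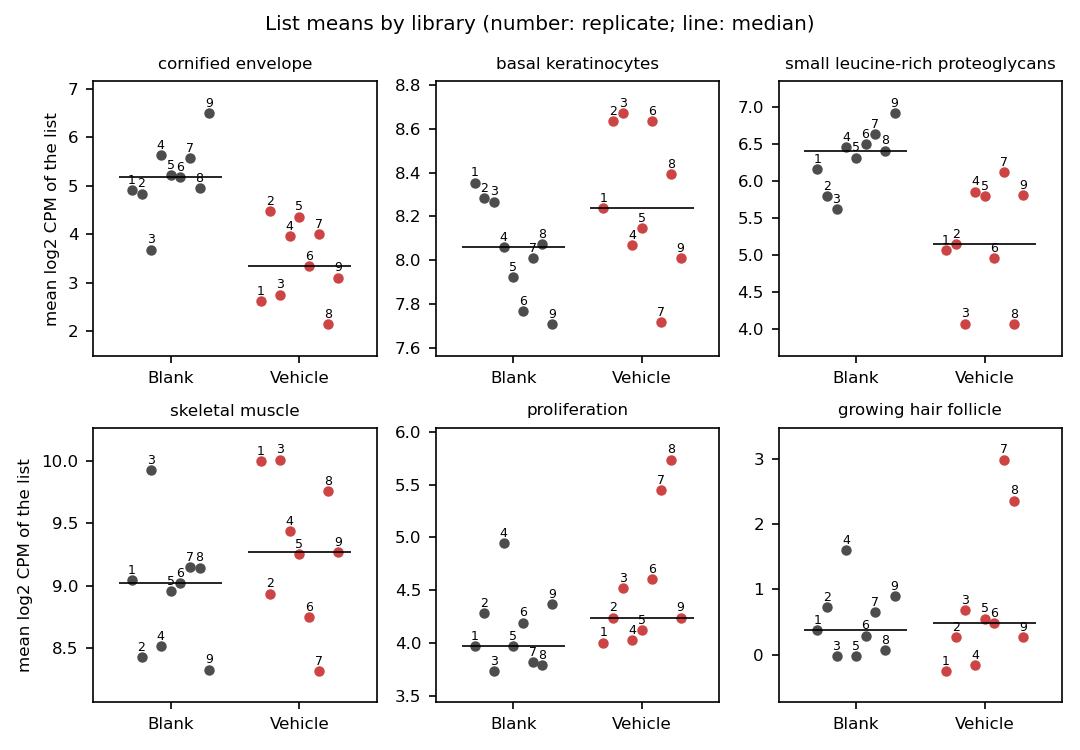
Mean log2 CPM of the tested members of 6 lists in each Blank and Vehicle library, with replicate numbers above the points and a line at the group median. Blank replicate 3 is the lowest Blank library for the cornified envelope (3.68) and the highest for skeletal muscle (9.92), and Vehicle replicates 7 and 8 stand above the other Vehicle libraries for proliferation and the growing follicle.

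The mean levels of the cycling-cell and growing-follicle lists were highest, among the Blank and Vehicle libraries, in Vehicle replicates 7 and 8, and no gene of either list passed the test. All 9 Vehicle libraries lay above the Blank median for the proliferation list mean. All 40 proliferation genes had a log2 fold change above 0, with a median of 0.53, but 0 were called in edgeR, against 23 at an unadjusted p under 0.05 and 3 called by DESeq2. Mki67, a marker of cycling cells, had 44.5, 69.8 and 135 CPM in Blank against 84.9, 95.6 and 338 CPM in Vehicle (0.82, standard error 0.25, adjusted p = 0.0621). Top2a, the topoisomerase of mitosis, had medians of 56.3 and 60.6 CPM, and Vehicle replicate 8 reached 177 CPM (0.54, adjusted p = 0.138). Without Vehicle replicates 7 and 8 the list median was 0.10, and Mki67 and Top2a had 0.35 and 0.14. Shh, the follicle signal of the growth phase, ran up to 42.8 CPM in Vehicle replicate 8 with a group median of 0.766 CPM, against a Blank median of 0.900 CPM. Its log2 fold change of 1.88 (standard error 0.95, adjusted p = 0.208) turned to -1.93 without Vehicle replicates 7 and 8. The growing-follicle list had 0 edgeR calls among 15 tested genes (list of 25, median 0.78, 0.05 without Vehicle replicate 7 and -0.21 without replicates 7 and 8), with 6 at an unadjusted p under 0.05 and 1 called by DESeq2.

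Of 13 resting follicle genes 2 fell, and of 27 tested follicle signalling genes 1 rose, against 2.76% of all genes called in either direction. Their list medians were -0.16 and 0.06, between -0.23 and -0.12 and between 0.04 and 0.16 without single libraries. Gas1, a cell-surface partner of hedgehog ligands, had 166, 182 and 211 CPM in Blank against 74.0, 110 and 150 CPM in Vehicle without overlap (log2 fold change -0.67, standard error 0.17, adjusted p = 0.0356). Dkk3 had 50.8, 60.8 and 68.5 CPM against 28.3, 42.8 and 54.0 CPM, with 8 of 9 Vehicle libraries below every Blank library (-0.61, standard error 0.14, adjusted p = 0.0323). Wnt4, a Wnt ligand of epidermis and follicle, rose from a median of 38.8 to 49.4 CPM (0.61, standard error 0.16, adjusted p = 0.0430). Lef1, a nuclear partner of beta-catenin in Wnt signalling, had 0.89 with an adjusted p of 0.109, and Vehicle replicate 8 held its highest level at 45.6 CPM. In the melanocyte list, 1 of 12 tested genes fell: Gpnmb, a glycoprotein of pigment cells and macrophages, from a median of 65.1 to 34.3 CPM (-0.89, standard error 0.20, adjusted p = 0.0323). The melanocyte list median was 0.43, but -0.08 without Vehicle replicate 8 and -0.69 without replicates 7 and 8. The 17 clock genes and 8 tested thyroid hormone genes gave 0 calls in edgeR and DESeq2, with medians of 0.05 and 0.06 and with 2 and 1 genes at an unadjusted p under 0.05.

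Separation of the groups was rare. In 22 of 17232 genes (0.128%) no Blank library lay inside the Vehicle range, with Vehicle below in 16 (0.0929%) and above in 6 (0.0348%). None of the 22 belonged to the epidermal lists, and Vegfc, Hdc, Gas1 and Reln were the members of any list among them. Myzap, Agpat4, Plxdc2, Hnrnph1 and Mrs2 are named from these 22 after their values were seen. Myzap, which encodes a junction-associated protein, had 13.7, 15.1 and 19.9 CPM in Blank against 5.17, 9.19 and 11.7 CPM in Vehicle (log2 fold change -0.88, standard error 0.15, adjusted p = 0.0322). Agpat4, an acyltransferase of phospholipid synthesis, had 21, 28.7 and 38.2 CPM against 10.7, 16.5 and 19.6 CPM (-0.94, standard error 0.18, adjusted p = 0.0322). Plxdc2 had 55.2, 65.4 and 103 CPM against 29.9, 41.2 and 54.4 CPM (-0.76, standard error 0.17, adjusted p = 0.0323). These differences were smaller than those of the envelope genes but sat on a narrower spread. Among the genes that lay higher, Hnrnph1, a splicing regulator, had 176, 208 and 233 CPM against 237, 275 and 372 CPM (0.48, standard error 0.10, adjusted p = 0.0323). Mrs2, a mitochondrial magnesium channel, had 35.3, 40.2 and 41.7 CPM against 42.9, 46.1 and 55.6 CPM (0.26, standard error 0.05, adjusted p = 0.0323).

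The largest rises were modest. Of the called genes averaging 1 CPM or more, the 8 highest log2 fold changes lay between 0.88 and 1.19. Mycbpap had the highest, with medians of 0.838 CPM in Blank and 1.47 CPM in Vehicle (1.19, standard error 0.30, adjusted p = 0.0366), and Hist1h3d, a replication-dependent histone gene, followed at 1.16 (standard error 0.29, adjusted p = 0.0348). Tnni3, the troponin I of heart muscle, had 0.840, 1.23 and 1.58 CPM in Blank against 0.814, 2.25 and 3.85 CPM in Vehicle, with 8 of 9 Vehicle libraries above every Blank library (0.94, standard error 0.22, adjusted p = 0.0323). Ddit4l, an inhibitor of mTOR signalling expressed in muscle, rose from a median of 56.5 to 104 CPM (0.89, standard error 0.23, adjusted p = 0.0377). Trim72, Ankle1, Mum1l1 and Pknox2 made up the rest, at 0.95, 0.93, 0.88 and 0.88. At the other end, the 8 lowest log2 fold changes ran from -4.54 in Sprr4 to -3.17 in Klk10. Besides genes already described, they included P2ry4, a nucleotide receptor gene, at -3.45 (standard error 0.82, adjusted p = 0.0323), and Lypd5 at -3.24 (standard error 0.74, adjusted p = 0.0323).

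Levels in the TDM libraries are set beside these without a test. Mean levels in Blank, Vehicle and TDM were 40.6, 11.4 and 42.5 CPM for Ivl. For Cdsn they were 104, 12.0 and 75.8 CPM, for Alox12b 15.5, 3.03 and 9.22 CPM, and for Klk7 138, 42.9 and 196 CPM. TDM means of these 4 genes thus lay above the Vehicle means. Klk8 had 26.4, 14.1 and 73.9 CPM, with no TDM library under 50.8 CPM and no Blank library over 40.5 CPM. For the barrier genes the TDM group was not uniform: Cdsn lay between 2.93 and 6.07 CPM in TDM replicates 3, 4, 5 and 7 and between 37.1 and 213 CPM in the other 5. The cornified envelope mean ran from 2.40 to 5.74 log2 CPM across TDM libraries, with a median of 4.29, so the widest spread of the 3 groups lay there. Myzap, Agpat4 and Plxdc2 had TDM means of 13.4, 23.0 and 57.4 CPM, between those of Vehicle and Blank.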

How the data were processed

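RNA sequencing of dorsal skin was read from 1 table of 54532 genes. Its 27 columns of whole-number read counts were deposited by the authors as raw counts, per the file headers. Another 27 columns hold FPKM values that the authors computed, per the file headers; they gave no result here. The fold changes and p-values in the table were left aside. The submitters' processing notes name Bowtie 0.12.2 and mm9. However, 98.33% of the 54495 genes found in GENCODE M21 carry that annotation's coordinates, so positions are printed from the table and read as GRCm38. The labels' protocols name the Illumina TruSeq RNA kit, and speak of retina where the tissue label says dorsal skin.

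Groups follow the labels. After filterByExpr (minimum count 10, minimum total 15), 17232 genes holding 99.86% of the reads were tested. edgeR 4.0.16 in R 4.3.3 scaled the counts by TMM and fitted all 27 libraries at once (glmQLFit with robust estimation, then glmQLFTest), so TDM libraries share in the estimate of spread. Adjusted p-values are Benjamini-Hochberg values over every gene tested, and calls use 0.05. Levels are CPM after TMM scaling, and list means use log2 CPM with a prior count of 2. To get a standard error, the log2 fold change was divided by the root of F; 95% intervals span 1.96 standard errors. Members, 44 gene lists and tests were chosen with earlier results of these data known, and no list was tested as a set. Genes were named by rule. They were the 8 highest and the 8 lowest log2 fold changes of called genes averaging 1 CPM or more, clone and locus names aside. Up to 4 called members per list by smallest p, and the first 2 of every list, were added. Not all of these genes are printed. Genes outside the rule, chosen after their values were seen, are marked in the text or are Klk6, Klk9, Spink5, Tchh and uncalled members given only by a log2 fold change.

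Total counts of the 18 libraries ran from 15412332 to 17599066. Over 108 pairs of libraries the lowest chi-square was 8.67 for each degree of freedom, so none agreed within sampling noise. In simulated data for Vehicle versus Blank (17232 genes), 68 of 100 genes set to differ 2-fold were recovered, as were 47 of 100 set to differ 1.5-fold, and 8 unchanged genes were called. Alternatives were DESeq2 1.42.0; limma 3.58.1 voom with quality weights; RLE scaling; no filter, or a filter at a mean of 1 CPM; the 18 libraries alone; a replicate block; the muscle list mean, or 3 surrogate variables (sva 3.50.0), as covariates; and fits without each library, without Vehicle replicates 7 and 8, and without 3, 7 and 8.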

Additional observations from a re-analysis of the deposited data

Results flagged for a closer look

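Within groups of 9 libraries, the highest or lowest library was set against the others by Dixon's test on log2 CPM, which divides the gap to the nearest library by the group's range and uses a 95% critical value. Chance alone flags about 1 in 20 groups, and 172 groups were tested. Blank replicate 3 was far below the other Blank libraries for 3 genes of the outer epidermis: Lor at 319 CPM (next 779), Flg2 at 57.8 CPM (next 190) and Krt10 at 502 CPM (next 1080). Blank replicate 9 was far above for Krt16 at 72.3 CPM (next 19.9), Blank replicate 6 far below for Krt14 at 1240 CPM (next 1860), and Blank replicate 5 far above for Cox6c at 324 CPM (next 232). Top2a was highest in Blank replicate 4 at 113 CPM (next 69.3), and the intestinal mucin gene Muc2 was highest in Blank replicate 8 at 23.2 CPM (next 2.51). Among Vehicle libraries, replicate 7 was far above for Klk10 at 13.3 CPM (next 8.10) and far below for Tnni3 at 0.814 CPM (next 1.79). Vehicle replicate 8 was far below for Wfdc5 at 0.134 CPM (next 0.756) and far above for Lef1 at 45.6 CPM (next 17.0).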

How the results depend on the processing

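The count of 475 called genes depended on the fit. It was 594 with the 18 libraries alone, 504 with RLE scaling and 542 with a filter at a mean of 1 CPM. It was 2 with no filter, 0 with the muscle mean as a covariate, 40 with 3 surrogate variables, 226 with limma voom, 1437 with DESeq2 (335 genes with no adjusted p), 84 without Vehicle replicates 7 and 8 and 0 without replicates 3, 7 and 8. Without 1 library it ranged from 0 to 1289. The counts of 0 came with 3152, 2835 and, without 1 library, 3430 or more genes at an unadjusted p under 0.05. The cause was not tested. All 475 genes, or all of them that an alternative's filter kept, had the same sign in every alternative run. Across every alternative run, single libraries left out included, medians ran from -2.07 to -1.24 (cornified envelope), -1.87 to -1.22 (proteases), -0.64 to -0.39 (barrier lipids) and -0.92 to -0.50 (keratins and desmosomes). Without Vehicle replicates 3, 7 and 8 they were -1.67, -1.60, -0.40 and -0.72, each with 0 genes called. Over all genes tested, correlations of same-numbered Vehicle and Blank deviations ran from -0.331 to 0.264. The best-matching Blank library had the same number for Vehicle replicates 2, 3 and 9. Single genes could still follow the number, as the clock genes Arntl and Dbp did. A shared order of the libraries was not tested. With the replicate block, 598 genes were called, of which 406 were shared. Shh changed sign to -1.17 with surrogate variables, -0.48 with limma voom, -1.93 without Vehicle replicates 7 and 8 and -2.07 without replicates 3, 7 and 8, and Muc2 to -0.0827 with surrogate variables. The growing-follicle median changed sign from 0.78 to -0.16 with surrogate variables, -0.07 with limma voom, -0.21 without Vehicle replicates 7 and 8 and -0.30 without 3, 7 and 8. The melanocyte median turned from 0.43 to -0.28, -0.05, -0.69 and -0.53 in the same order, and the erythrocyte median from 0.41 to -0.16 and -0.01 in the last pair. Medians of the chemokine, follicle signalling, nerve, dermal adipocyte, Langerhans, T cell, sebaceous, pericyte, thyroid hormone, heat shock and immediate early lists, all within 0.27 of 0, also changed sign under at least 1 alternative. Library totals of 15412332 to 17599066 reads limit genes near 1 CPM to few reads a library.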

Other observations

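Transcripts of intestinal epithelium stood out in 4 of the 18 libraries. The 4 intestinal markers summed to between 0.999 and 32.9 CPM in Blank libraries with a median of 2.94, and to between 0.975 and 148 CPM in Vehicle libraries with a median of 3.95. Muc2, the main intestinal mucin, had 23.2 CPM in Blank replicate 8. In Vehicle, replicate 3 had 37.0 CPM of it, replicate 4 had 18.5 CPM and replicate 6 had 9.31 CPM. The other 14 libraries held 2.51 CPM or less. Dmbt1, a gut glycoprotein, reached 54.4 CPM in Vehicle replicate 3 against a Vehicle median of 0.510 CPM. Neither was called in Vehicle against Blank (log2 fold change 0.98 with an adjusted p of 0.405 for Muc2, and 2.98 with 0.0802 for Dmbt1). Of 24 intestinal genes, 10 were tested, 0 were called in edgeR and DESeq2 (5 at an unadjusted p under 0.05), and the list median was 0.68, or 0.25 without Vehicle replicate 3.

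Vehicle replicate 3 also had the lowest Vehicle levels of the mast cell genes Hdc (1.01 CPM), Mcpt4 (13.9 CPM) and Cpa3 (3.23 CPM), of the proteoglycan gene Bgn (80.7 CPM) and of Vegfc (1.62 CPM), and the highest of Trim72 (283 CPM) and Ckm (4926 CPM). Adipocyte markers summed to between 169 and 2038 CPM in Vehicle and between 1109 and 3290 CPM in Blank. Erythrocyte markers summed to between 221 and 2373 CPM in Vehicle and between 360 and 1164 CPM in Blank.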
